A study of Mus musculus with 10 samples.

Results

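The 47 genes described here carry out or start DNA replication, and they were listed by gene symbol, with no threshold on measured values. All 47 were found among 52324 gene symbols, and all 47 were among the 12820 genes tested. The tumours were grown under the skin of mice from 4T1, a mammary carcinoma line, and their RNA was sequenced on day 14, with 2 libraries in each of 5 groups. The negative control received PBS according to the design text. The treated groups were Free-MK1775, Free-MK1775+NLG919, Lipo-MK1775 and Lipo-MK1775+NLG, the last of which the design text names with NLG919. MK1775 inhibits the kinase WEE1, and NLG919 acts on the IDO1 pathway of tryptophan breakdown. The sources used here give neither the doses nor the make-up of the free and Lipo forms, and do not say if each library is a separate mouse. Every p value therefore measures only the spread between these libraries, which may be technical.

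Replication begins in G1, when the origin recognition complex, CDC6 and CDT1 load the MCM2 to MCM7 helicase onto DNA. At the start of S phase the kinases CDC7 and CDK2 turn loaded helicases into moving forks with CDC45, GINS and MCM10, and polymerases, the PCNA clamp, its loader and nucleotide enzymes then copy the strands. E2F transcription factors switch on many of these genes at the G1 to S boundary. WEE1 restrains CDK1 and CDK2 by phosphorylation, so it bears on origin firing in S phase as well as on the entry to mitosis.

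Expression is given as FPKM, a fragment count corrected for transcript length and library size, summed per gene and rescaled to the total of all transcripts outside the mitochondrial chromosome. The rescaled values are called levels here, and they can be compared between genes because they are per length. Transcripts of the mitochondrial chromosome made up 64.1% and 56.0% of summed FPKM in the Lipo-MK1775 libraries and 47.3% in Free-MK1775+NLG919 replicate 2, against 2.88% to 4.82% in the other 7. These 3 libraries also had fewer genes at a level of at least 1, 10613 to 10817 against 11879 to 12310. By relative depth, negative control replicate 1 was 1.95 times as deep as Lipo-MK1775 replicate 1, the shallowest. With both of its libraries of this kind, Lipo-MK1775 and a high mitochondrial share cannot be told apart. The tumour epithelium markers Krt8 and Krt18 ran from 94.1 to 245 and from 206 to 353, Epcam stood at 0 to 3.94 and Krt19 under 1. The macrophage gene Lyz2 stood at 321 to 947 in the same libraries. In such bulk samples fewer cycling cells and less RNA per cell cannot be told apart.

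Promoters listed by RefSeq on GRCm38.p6, 250 bases before to 50 bases after the start, were available for 39 of the 47 genes. They were searched on both strands for 4 spellings of the E2F motif, TTTCGCGC, TTTGGCGC, TTTCCCGC and TTTGCCGC. A motif was present in 15 of the 39, or 38.5%, against 2.60% of 27025 listed genes and 4.82% of 9537 genes tested. Different spellings overlap where they meet as inverted copies, and these runs are printed as a single stretch. The promoters below are shown because they hold the motif in genes of differing behaviour. Mcm6 (chr1:128359656-128359955, minus strand) and Mcm5 (chr8:75109259-75109558, plus strand) encode helicase subunits, Cdc6 (chr11:98907901-98908200, plus strand) the loading factor and Rfc3 (chr5:151651159-151651458, minus strand) a clamp loader subunit. Capitals mark motif matches.
Mcm6: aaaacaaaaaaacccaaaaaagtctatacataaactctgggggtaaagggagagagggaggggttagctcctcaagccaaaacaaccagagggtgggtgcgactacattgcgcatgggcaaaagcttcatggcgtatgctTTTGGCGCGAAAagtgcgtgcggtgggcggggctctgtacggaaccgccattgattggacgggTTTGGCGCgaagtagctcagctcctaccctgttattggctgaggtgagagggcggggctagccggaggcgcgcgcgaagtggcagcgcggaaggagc
Mcm5: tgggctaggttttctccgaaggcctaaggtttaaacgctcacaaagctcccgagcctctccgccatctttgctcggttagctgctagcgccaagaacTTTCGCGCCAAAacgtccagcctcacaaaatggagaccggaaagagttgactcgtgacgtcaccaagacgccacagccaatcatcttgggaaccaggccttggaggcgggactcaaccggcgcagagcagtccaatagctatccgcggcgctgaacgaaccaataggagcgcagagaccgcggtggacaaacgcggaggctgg
Cdc6: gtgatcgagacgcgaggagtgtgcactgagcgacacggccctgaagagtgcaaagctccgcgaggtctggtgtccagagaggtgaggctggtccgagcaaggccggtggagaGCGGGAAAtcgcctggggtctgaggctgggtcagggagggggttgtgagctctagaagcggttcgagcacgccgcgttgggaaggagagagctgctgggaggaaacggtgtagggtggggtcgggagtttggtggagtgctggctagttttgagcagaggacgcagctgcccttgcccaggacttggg
Rfc3: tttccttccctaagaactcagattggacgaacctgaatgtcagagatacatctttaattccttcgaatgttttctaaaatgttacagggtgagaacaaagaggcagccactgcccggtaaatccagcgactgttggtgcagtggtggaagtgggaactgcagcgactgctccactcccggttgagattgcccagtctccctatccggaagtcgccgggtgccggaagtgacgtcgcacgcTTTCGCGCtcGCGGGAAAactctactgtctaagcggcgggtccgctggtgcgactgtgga
The Mcm6 promoter has 3 matches, those of Mcm5 and Rfc3 have 2, and that of Cdc6 has 1. A match describes letters in this window and does not show that a factor binds there. Genes with and without a match had median log2 changes of -1.09 and -0.995 with Lipo-MK1775 and of -0.25 and -0.20 with Free-MK1775, differences that were not tested. Relative to genes nearest in level and length the order with Lipo-MK1775 was the other way, -0.23 with and -0.25 without a match. Ccne2, Gins1, Gins2, Gins4, Mcm4, Pole, Prim2 and Rfc2 had no listed promoter and are in neither set. Among them are Mcm4 and Prim2, with the lowest log2 changes of the 47 with Lipo-MK1775 (-1.84 and -1.73), and Gins2, with the highest (-0.20).

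The replication genes stood lower than the control in all treated groups by their median, but by very different amounts. The median log2 change of the 47 genes was -0.22 with Free-MK1775, -0.80 with Free-MK1775+NLG919, -1.04 with Lipo-MK1775 and -0.08 with Lipo-MK1775+NLG. The medians of all genes tested in the same order were -0.07, -0.44, -0.78 and -0.03. The all-gene median was thus most of the shift with Lipo-MK1775 and the smaller part of it with Free-MK1775 and Lipo-MK1775+NLG. Relative to the 200 tested genes nearest to each in level and transcript length, the median of the 47 was -0.15, -0.30, -0.22 and -0.05 in that order, with 39, 35, 34 and 30 genes below. These comparisons share the 2 control libraries. By library, the median over the 47 genes against the control mean was -0.29 and -0.10 with Free-MK1775, -0.36 and -1.38 with Free-MK1775+NLG919, -0.91 and -1.06 with Lipo-MK1775, and -0.10 and -0.03 with Lipo-MK1775+NLG. The 3 libraries of high mitochondrial share held the lowest medians.

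**Figure D1:**
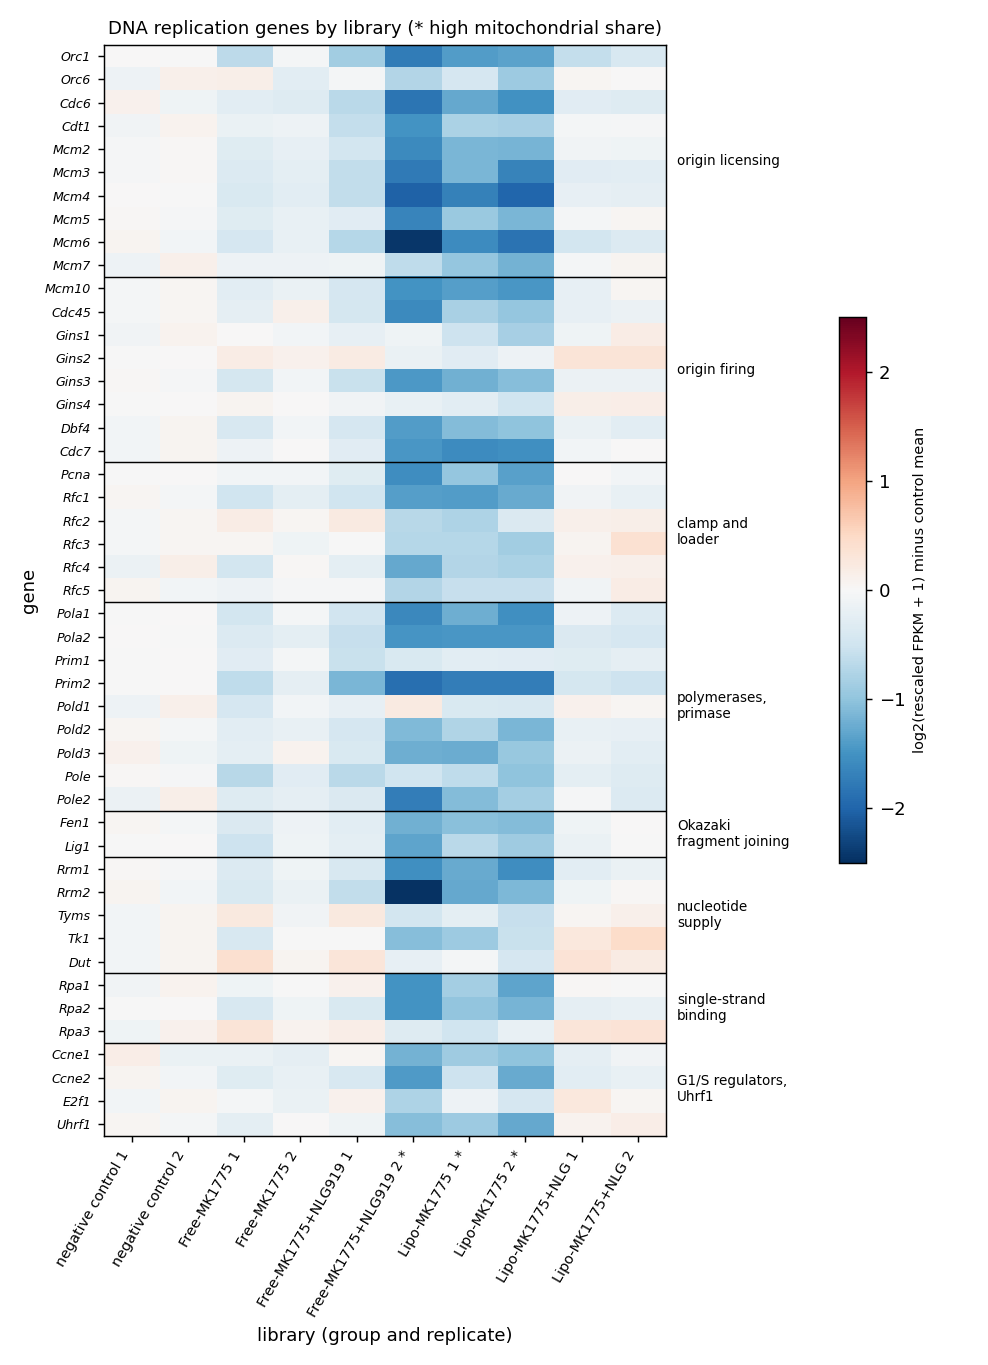
Difference of log2(rescaled FPKM + 1) from the control mean (colour, blue lower and red higher) for each of 47 replication genes (rows, grouped by role) in each of 10 libraries (columns). The 3 libraries with an asterisk, of mitochondrial share over 40%, are blue for nearly all genes, while Gins2, Dut and Rpa3 are pale there.

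Summed over the 47 genes, the level was 859 and 875 in the control, 748 and 803 with Free-MK1775, and 697 and 353 with Free-MK1775+NLG919. It was 442 and 391 with Lipo-MK1775 and 823 and 840 with Lipo-MK1775+NLG. No treated library reached either control library by this sum. The 14 genes of a mitosis list, which mark dividing cells later in the cycle, were lowest in the 3 libraries of high mitochondrial share. Their summed levels were 137 to 192 with Lipo-MK1775 against 372 to 376 in the control. They were 274 to 390 with Free-MK1775, 118 to 275 with Free-MK1775+NLG919 and 295 to 314 with Lipo-MK1775+NLG.

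In Lipo-MK1775 all 47 genes were lower than the control by their mean, and 27 were called lower, meaning an adjusted p under 0.05 by limma's moderated test over all genes. Among all genes tested 47.7% were called lower, so the share among replication genes was not far above the background. Libraries did not overlap for 46 of the 47, against 79.3% of all genes lower without overlap. With Free-MK1775 none was called, where 0.0078% of all genes were, and none had an unadjusted p under 0.05. These p values use a spread pooled over all 5 groups, the 2 unlike Free-MK1775+NLG919 libraries included. For Prim2 with Free-MK1775, at -0.43, the SE was 0.28. It was 0.16 at the same log2 change when the 3 libraries of high mitochondrial share were set aside. With Free-MK1775+NLG919 none was called either, against 0.211% of all genes, while 29 had an unadjusted p under 0.05, against 32.3% of all genes. Without replicate 1 of that group, which leaves the library of high mitochondrial share, 38 were called lower, against 59.8% of all genes. With Lipo-MK1775+NLG none was called and none had an unadjusted p under 0.05, and limma called 0% of all genes, with 238 genes under 0.05 unadjusted. The same pooled spread enters here. For Mcm6 with Lipo-MK1775+NLG, at -0.40, the SE was 0.44, and 0.12 with the 3 libraries of high mitochondrial share set aside. The absence of small p values in these 2 groups thus depends on the libraries in the fit.

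**Figure D2:**
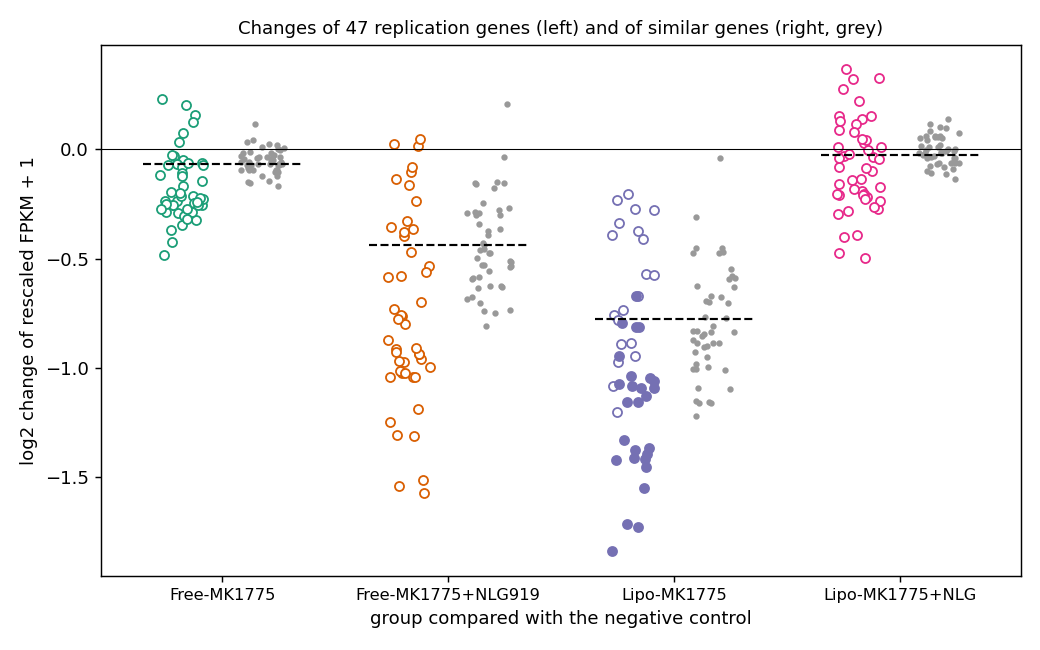
Log2 change against the negative control (vertical axis) of each of 47 replication genes (coloured circles, filled where called) and the median of the 200 genes nearest to it in level and length (grey points), for 4 treated groups. Dashed lines are the medians of all 12820 genes, -0.07, -0.44, -0.78 and -0.03 from left to right; filled circles appear with Lipo-MK1775 alone.

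The calls with Lipo-MK1775 depended on single libraries and on the scaling, over all genes as well as over the 47. Leaving out 1 library of a compared group leaves 1 in it, and the share of all genes called lower then fell too. The median of the 47 minus that of all genes, -0.26 in the main fit, ran from -0.30 to -0.11 in these fits. Without control replicate 1, control replicate 2 or Lipo-MK1775 replicate 1, none of the 47 was called, and without Lipo-MK1775 replicate 2 only Prim2 was. Median-of-ratios scaling moved the median of all genes from -0.78 to -0.0026 and that of the replication genes from -1.04 to -0.15, and left 6 called lower, namely Cdc7, Mcm10, Mcm4, Pola2, Prim2 and Rfc1, and 3 called higher, namely Dut, E2f1 and Gins2, against 8.88% and 11.1% of all genes. Under that scaling the log2 changes of Cdt1, Gins1 and Rfc3, called lower in the main scaling, also turned positive, at 0.11, 0.19 and 0.13, and under quantile scaling that of Pole was 0.0092. In all, 18 of the 47 were above 0 with the first of these scalings and 17 with the second. With the mitochondrial share as a covariate none was called and the median was 0.07, with 28 of the 47 above 0, Mcm2, Mcm5, Mcm6, Pcna, Dbf4, Pold3, Fen1, Rpa2 and Uhrf1 among them. Of all genes 0% were called lower in that fit, and their median was 0.019. Only Free-MK1775+NLG919 held widely different shares, 2.88% and 47.3%. The fitted slope thus rests mostly on that pair, and the fit cannot separate Lipo-MK1775 from a high share.

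Of the licensing genes, which load the helicase, 9 of 10 were called lower with Lipo-MK1775, where 47.7% of all genes were. Their median log2 change was -1.26, and -0.26 relative to the genes nearest in level and length, beside -0.97 and -0.29 for the firing factors described next; these differences were not tested. All 6 subunits of the helicase were called lower there, with a median log2 change of -1.28. Mcm6, at chr1:128259327-128287401 on GRCm39, stood at 61.8 and 55.9 in the control, 43.6 and 51.3 with Free-MK1775, 35.6 and 10.0 with Free-MK1775+NLG919, 19.0 and 15.6 with Lipo-MK1775 and 42.6 and 45.9 with Lipo-MK1775+NLG. All 8 treated libraries lay below both control libraries, and the 3 of high mitochondrial share were the lowest. Its log2 change with Lipo-MK1775 was -1.72 (SE 0.44, adjusted p = 0.0150 by limma, n = 2 against 2). Mcm4, another subunit, at chr16:15441761-15455264, had levels of 27.3 and 26.9 in the control, 20.6 and 22.4 with Free-MK1775, 17.4 and 5.97 with Free-MK1775+NLG919, 7.72 and 6.09 with Lipo-MK1775 and 23.3 and 23.0 with Lipo-MK1775+NLG. Every treated library was again below the control. It had the lowest log2 change of the 47 with Lipo-MK1775, -1.84 (SE 0.38, adjusted p = 0.0104 by limma). The other treatments gave no call for Mcm4, with log2 changes of -0.33, -1.31 and -0.22 for Free-MK1775, Free-MK1775+NLG919 and Lipo-MK1775+NLG.

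Mcm2 levels were 21.0 and 22.0 in the control, 17.1 and 18.5 with Free-MK1775, 15.4 and 6.48 with Free-MK1775+NLG919, 9.17 and 9.03 with Lipo-MK1775 and 20.2 and 19.8 with Lipo-MK1775+NLG. Mcm3 levels were 35.6 and 37.3 in the control, 28.5 and 30.7 with Free-MK1775, 23.5 and 9.98 with Free-MK1775+NLG919, 15.9 and 10.7 with Lipo-MK1775 and 29.9 and 30.0 with Lipo-MK1775+NLG. For both subunits the groups of treated libraries lay below the control without overlap. For Mcm5 the values were 21.5 and 20.7 in the control, 17.0 and 18.5 with Free-MK1775, 17.1 and 6.02 with Free-MK1775+NLG919, 10.6 and 8.98 with Lipo-MK1775 and 20.3 and 21.9 with Lipo-MK1775+NLG. Here Lipo-MK1775+NLG overlapped the control and the other treated libraries lay below it. The Mcm7 values were 24.0 and 28.6 in the control, 24.0 and 24.0 with Free-MK1775, 24.3 and 16.6 with Free-MK1775+NLG919, 12.9 and 10.9 with Lipo-MK1775 and 25.3 and 27.4 with Lipo-MK1775+NLG, with only the Free-MK1775+NLG919 replicate 2 and Lipo-MK1775 libraries apart from the rest. The locus of Mcm7 also holds the microRNA genes Mir106b, Mir25 and Mir93, and 29.0% of its level came from assembled transcripts with no symbol. The log2 changes with Lipo-MK1775 were -1.15 for Mcm2, -1.41 for Mcm3, -1.04 for Mcm5 and -1.08 for Mcm7, all called lower.

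The loading factor Cdc6 stood at 6.98 and 5.82 in the control, 5.18 and 4.93 with Free-MK1775, 3.62 and 1.09 with Free-MK1775+NLG919, 2.04 and 1.60 with Lipo-MK1775 and 5.07 and 4.93 with Lipo-MK1775+NLG. All treated libraries were below both controls. Its log2 change with Lipo-MK1775 was -1.39 (SE 0.34, adjusted p = 0.0136 by limma). Cdt1, which brings the helicase to the origin with CDC6, had levels of 18.5 and 21.3 in the control, 17.5 and 18.04 with Free-MK1775, 12.8 and 6.40 with Free-MK1775+NLG919, 11.03 and 10.7 with Lipo-MK1775 and 19.2 and 19.4 with Lipo-MK1775+NLG. The Lipo-MK1775+NLG libraries lay between the control libraries, and the other 6 treated libraries were below them. Cdt1 was called lower with Lipo-MK1775 at -0.81, and was 0.11 higher under median-of-ratios scaling. Orc1, the largest subunit of the origin recognition complex, was a low gene, at 3.94 and 3.81 in the control, 2.10 and 3.74 with Free-MK1775, 1.66 and 0.457 with Free-MK1775+NLG919, 0.842 and 0.937 with Lipo-MK1775 and 2.21 and 2.71 with Lipo-MK1775+NLG. No treated library reached the control, though Free-MK1775 replicate 2 came close. It was called lower with Lipo-MK1775 (-1.37) and had the lowest log2 change of the 47 with Lipo-MK1775+NLG (-0.50, adjusted p = 1 by limma). Orc6, a small subunit of the same complex, was the exception among licensing genes, with 13.5 and 16.2 in the control, 10.8 and 7.40 with Lipo-MK1775, and no call (-0.67, adjusted p = 0.0800 by limma).

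All 8 firing factors were lower than the control with Lipo-MK1775 without overlap, against 79.3% of all genes. Of the 8, 5 were called, where 47.7% of all genes were called lower. The kinase gene Cdc7 had a log2 change of -1.55 and its partner Dbf4 of -1.04, both called lower. Mcm10, which joins the fork to the polymerases, was called lower at -1.42. Cdc45, a helicase cofactor, was not called (-0.89, adjusted p = 0.0523 by limma). The 4 GINS genes, whose products form a single complex, moved unequally, with log2 changes of -0.67 for Gins1, -0.20 for Gins2, -1.13 for Gins3 and -0.38 for Gins4. Gins1 and Gins3 were called lower and the other two were not. Gins2 levels were 5.25 and 5.38 in the control, 6.22 and 5.84 with Free-MK1775, 6.32 and 4.62 with Free-MK1775+NLG919, 4.22 and 4.76 with Lipo-MK1775 and 6.88 and 6.93 with Lipo-MK1775+NLG. In the 5 treated libraries of low mitochondrial share Gins2 was above both controls, and in the other 3 it was below them.

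**Figure D3:**
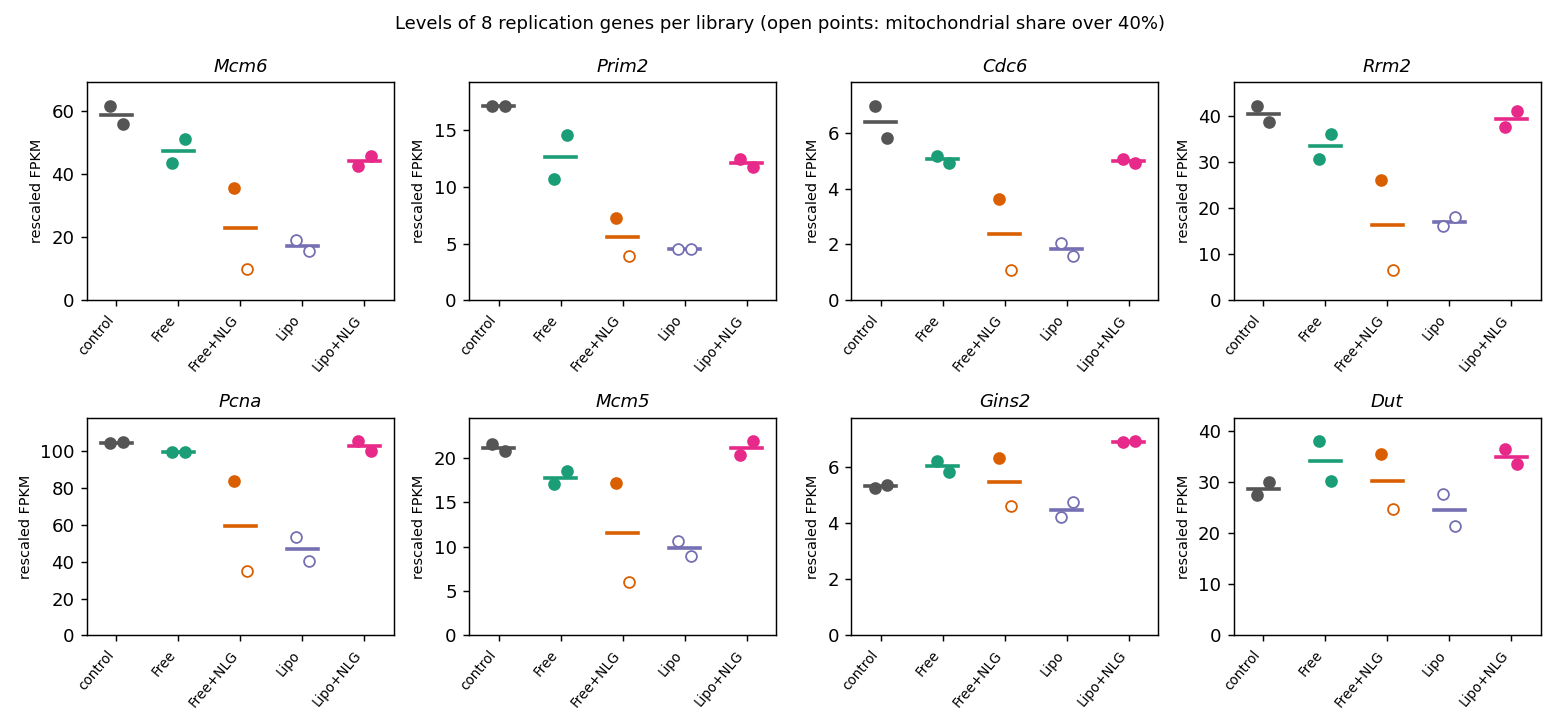
Rescaled FPKM (vertical axes, from 0) of 8 replication genes in the 5 groups, with a point per library and a bar at each group mean of 2. Open points, the 3 libraries of mitochondrial share over 40%, are the lowest for Mcm6, Prim2, Cdc6, Rrm2, Pcna and Mcm5, while for Gins2 and Dut they lie closer to the control.

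The clamp Pcna, the most abundant of the 47, stood at 104 and 105 in the control, 99.5 and 99.8 with Free-MK1775, 84.1 and 35.2 with Free-MK1775+NLG919, 53.4 and 40.3 with Lipo-MK1775 and 106 and 100.4 with Lipo-MK1775+NLG. The Free-MK1775 libraries were slightly below the control and Lipo-MK1775+NLG overlapped it. It was called lower with Lipo-MK1775 at -1.16 (SE 0.35, adjusted p = 0.0233 by limma). Of the 5 clamp loader genes, Rfc1 and Rfc3 were called lower with Lipo-MK1775, at -1.33 and -0.79, and Rfc2, Rfc4 and Rfc5 were not, at -0.57, -0.76 and -0.57. Of all genes 47.7% were called lower there. Rfc1, the large subunit, had levels of 14.1 and 13.2 in the control, 9.37 and 11.4 with Free-MK1775, 9.40 and 4.60 with Free-MK1775+NLG919, 4.54 and 5.12 with Lipo-MK1775 and 12.8 and 11.8 with Lipo-MK1775+NLG, below the control in every treated library. Rfc3, whose promoter is printed above, stood at 17.9 and 19.2 in the control, 19.2 and 17.2 with Free-MK1775 and 10.9 and 9.697 with Lipo-MK1775.

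Polymerases and primase had 6 of 9 genes called lower with Lipo-MK1775, beside the 47.7% of all genes. Prim2, the large primase subunit, at chr1:33492891-33708876, stood at 17.2 and 17.2 in the control, 10.7 and 14.6 with Free-MK1775, 7.22 and 3.93 with Free-MK1775+NLG919, 4.50 and 4.48 with Lipo-MK1775 and 12.5 and 11.7 with Lipo-MK1775+NLG. The control libraries were close together and every treated library was lower. Its log2 change was -1.73 with Lipo-MK1775 (SE 0.28, adjusted p = 0.00876 by limma) and -1.51 with Free-MK1775+NLG919 (SE 0.28, adjusted p = 0.0674 by limma, not called). Its partner Prim1, the catalytic subunit, had a log2 change of only -0.27 with Lipo-MK1775, with levels of 12.5 and 12.6 in the control and 10.3 and 10.1 with Lipo-MK1775. The 2 primase subunits thus differed within the same libraries, a difference that was not tested.

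Pola1, the catalytic subunit of polymerase alpha, stood at 5.88 and 5.92 in the control, 4.00 and 5.67 with Free-MK1775, 3.97 and 1.26 with Free-MK1775+NLG919, 1.94 and 1.40 with Lipo-MK1775 and 5.30 and 4.44 with Lipo-MK1775+NLG. All treated libraries were lower than the control, and the gene was called lower with Lipo-MK1775 at -1.38. Its partner Pola2 was called lower at -1.45. Pole, the catalytic subunit of the leading strand polymerase, stood at 4.88 and 4.60 in the control, 2.56 and 3.73 with Free-MK1775, 2.62 and 3.07 with Free-MK1775+NLG919, 2.72 and 1.87 with Lipo-MK1775 and 3.87 and 3.57 with Lipo-MK1775+NLG. Free-MK1775 replicate 1 was as low as the libraries of high mitochondrial share, and no treated library reached the control. Pole had the lowest log2 change of the 47 with Free-MK1775, -0.48 (SE 0.26, adjusted p = 1 by limma), and was called lower with Lipo-MK1775 at -0.81. The polymerase delta genes Pold2 and Pold3 were called lower with Lipo-MK1775, at -0.95 and -1.09, while Pold1 and the epsilon subunit Pole2 were not, at -0.39 and -0.97. Pold1 levels were 10.4 and 12.7 in the control, 8.33 and 10.8 with Free-MK1775, 9.89 and 13.6 with Free-MK1775+NLG919, 8.54 and 8.50 with Lipo-MK1775 and 12.4 and 11.9 with Lipo-MK1775+NLG, and its highest library was Free-MK1775+NLG919 replicate 2. The flap nuclease Fen1 was called lower at -1.06, and the ligase Lig1, which seals Okazaki fragments, was not (-0.78, adjusted p = 0.0732 by limma).

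Of the 5 nucleotide genes, Rrm1 alone was called lower with Lipo-MK1775, where 47.7% of all genes were. This large subunit of ribonucleotide reductase stood at 26.1 and 24.9 in the control, 19.8 and 23.7 with Free-MK1775, 19.0 and 8.10 with Free-MK1775+NLG919, 10.0 and 7.98 with Lipo-MK1775 and 21.1 and 22.7 with Lipo-MK1775+NLG, below the control in all treated libraries. Its log2 change was -1.41 (SE 0.34, adjusted p = 0.0127 by limma). The small subunit Rrm2 had levels of 42.2 and 38.6 in the control, 30.6 and 36.1 with Free-MK1775, 26.1 and 6.49 with Free-MK1775+NLG919, 16.1 and 17.99 with Lipo-MK1775 and 37.5 and 41.0 with Lipo-MK1775+NLG. Free-MK1775+NLG919 replicate 2 was the lowest library, and Lipo-MK1775+NLG replicate 2 lay within the control range. Its log2 change with Lipo-MK1775 was -1.20 (SE 0.47, adjusted p = 0.0532 by limma). Tyms, thymidylate synthase, stood at 7.74 and 8.52 in the control, 9.73 and 7.58 with Free-MK1775, 9.84 and 5.65 with Free-MK1775+NLG919, 6.75 and 5.10 with Lipo-MK1775 and 8.47 and 8.91 with Lipo-MK1775+NLG, with the 3 libraries of high mitochondrial share the lowest. Assembled transcripts with no symbol gave 40.2% of its level. Dut, which removes dUTP, stood at 27.5 and 30.0 in the control, 38.1 and 30.2 with Free-MK1775, 35.6 and 24.8 with Free-MK1775+NLG919, 27.6 and 21.4 with Lipo-MK1775 and 36.4 and 33.5 with Lipo-MK1775+NLG. The 5 treated libraries of low mitochondrial share were above both controls, and Lipo-MK1775 overlapped the control. Thymidine kinase Tk1 was 22.8 and 24.9 in the control, 12.2 and 15.9 with Lipo-MK1775 and 28.9 and 33.3 with Lipo-MK1775+NLG, the highest log2 change of the 47 in that last group (0.37, adjusted p = 1 by limma).

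The single-strand binding genes Rpa1, Rpa2 and Rpa3 had log2 changes of -1.08, -1.07 and -0.34 with Lipo-MK1775. Only Rpa2 was called lower, where 47.7% of all genes were. Rpa3, the smallest subunit, stood at 22.0 and 25.7 in the control, 30.1 and 25.3 with Free-MK1775, 26.8 and 18.9 with Free-MK1775+NLG919, 16.7 and 20.8 with Lipo-MK1775 and 29.5 and 30.5 with Lipo-MK1775+NLG, and only the 3 libraries of high share lay below the control. The E cyclins of the G1 to S step were at low levels. Ccne1, a cyclin partner of CDK2, stood at 4.28 and 3.25 in the control, 3.24 and 3.03 with Free-MK1775, 3.89 and 1.10 with Free-MK1775+NLG919, 1.55 and 1.37 with Lipo-MK1775 and 3.06 and 3.43 with Lipo-MK1775+NLG. Ccne2, the other E cyclin, stood at 5.59 and 4.99 in the control, 4.12 and 4.53 with Free-MK1775, 3.75 and 1.35 with Free-MK1775+NLG919, 3.41 and 1.62 with Lipo-MK1775 and 4.20 and 4.51 with Lipo-MK1775+NLG. Neither was called with Lipo-MK1775 (-0.95 and -0.89), and for both the libraries of high share were lowest, without overlap with the control. The transcription factor gene E2f1 stood at 11.2 and 12.4 in the control, 11.4 and 10.4 with Free-MK1775, 12.8 and 6.53 with Free-MK1775+NLG919, 10.8 and 8.52 with Lipo-MK1775 and 14.3 and 12.3 with Lipo-MK1775+NLG, with a log2 change of -0.28 that was not called and that turned to 0.63 under median-of-ratios scaling. Uhrf1, which directs DNA methylation to newly made strands, stood at 20.6 and 19.1 in the control, 16.6 and 19.8 with Free-MK1775, 18.5 and 8.93 with Free-MK1775+NLG919, 10.1 and 7.61 with Lipo-MK1775 and 21.2 and 22.4 with Lipo-MK1775+NLG and was called lower with Lipo-MK1775 at -1.09.

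A set of the genes stood below the control in every treated library. All 8 treated libraries were lower than both control libraries for 19 of the 47, where 12.3% of all genes tested were. These were Orc1, Cdc6, Mcm2, Mcm3, Mcm4, Mcm6, Gins3, Dbf4, Rfc1, Pola1, Pola2, Prim1, Prim2, Pold2, Pole, Lig1, Rrm1, Rpa2 and Ccne2. Taking only the 5 treated libraries of low mitochondrial share, the same 19 were lower than both controls, against 12.9% of all genes. In the opposite direction 3 of the 47, Gins2, Rfc2 and Dut, were higher in all 5, against 6.85% of all genes. The count was made on the rescaled levels only, rests on the same 2 control libraries for every gene and carries no test.

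When the 3 libraries of high mitochondrial share were set aside, the median log2 change was -0.22 with Free-MK1775, -0.36 with Free-MK1775+NLG919 and -0.08 with Lipo-MK1775+NLG. The medians of all genes were -0.07, -0.11 and -0.03. By log2 change 41, 39 and 30 of the 47 were lower than the control, in that order. None of the 47 was called in any of these, and the share of all genes called there is not given here. In that fit Free-MK1775+NLG919 is 1 library, assumed to vary like the other groups. Its smallest adjusted p was 0.115 for Prim2, with a log2 change of -1.15 (SE 0.19). The licensing genes Mcm6, Mcm4 and Mcm3 followed at -0.71, -0.61 and -0.61, all 3 with adjusted p = 0.132 by limma.

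Without overlap of libraries, 27 of the 47 were lower with Free-MK1775, against 22.3% of all genes, and 33 with Free-MK1775+NLG919, against 48.6%. With Lipo-MK1775+NLG 21 were lower without overlap and 8 higher, against 28.2% and 22.6% of all genes.

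Between treated groups, Lipo-MK1775 was lower than Free-MK1775 for all 47 genes by the mean, and 18 were called lower, against 37% of all genes. Mcm4 changed by -1.51 (SE 0.38, adjusted p = 0.0258 by limma) and Cdc7 by -1.48. Under median-of-ratios scaling the median of the 47 was 0.0047 and 1 gene was called, under quantile scaling -0.06 and 1, and with the mitochondrial share as covariate 0.21 and none. All calls were lost without either Free-MK1775 or either Lipo-MK1775 library, and fewer were left without a control or Lipo-MK1775+NLG library. More were called without either Free-MK1775+NLG919 library. Each of these fits has a group of 1 library, and its share of all genes called is not given here. Lipo-MK1775+NLG was higher than Lipo-MK1775 for all 47 genes, with 24 called higher, against 44.1% of all genes, and a median of 0.87 beside 0.75 for all genes. Under median-of-ratios scaling 1 was called and the median was 0.12, under quantile scaling 0 and 0.07, and with the mitochondrial share as covariate none was called and the median turned to -0.21. The largest were Mcm4 at 1.62, Cdc7 at 1.52 and Mcm10 at 1.34. The calls for NLG919 with the Lipo form were all lost without any 1 of the 4 libraries compared. Fewer were left without either control library, and more were called without either Free-MK1775+NLG919 library. Here too a group is left with 1 library, and the shares of all genes called are not given.

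NLG919 added to Free-MK1775 gave a median of -0.63, beside -0.38 for all genes, and no call, where 0.0078% of all genes were called. Lipo-MK1775+NLG against Free-MK1775+NLG919 gave a median of 0.71, beside 0.42, and again no call, where 0.0078% of all genes were. Unadjusted p values were under 0.05 for 16 and 23 of the 47 in these 2 comparisons, against 16% and 20% of all genes. Both rest on Free-MK1775+NLG919 replicate 2, without which the medians were -0.16 and 0.24. Without replicate 1 of that group, 39 and 41 of the 47 were called, against 57.5% lower and 59.9% higher among all genes, in a fit where the remaining library is of high mitochondrial share.

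The interaction of form and NLG919 asks whether the difference made by NLG919 was the same for both forms. It was positive for all 47 genes, with a median of 1.55 beside 1.13 for all genes, and 33 were called higher, against 52.1% of all genes. Mcm4 had an interaction of 2.61 (SE 0.54, adjusted p = 0.0166 by limma), Mcm6 of 2.58 and Rrm2 of 2.43. All calls were lost without Free-MK1775 replicate 2, Lipo-MK1775 replicate 1 or Lipo-MK1775+NLG replicate 1. Fewer were left without Lipo-MK1775 replicate 2 or Lipo-MK1775+NLG replicate 2. Each of these fits has a group of 1 library, and how many of all genes were called in it is not given here. The groups with low levels in this contrast, Lipo-MK1775 and 1 library of Free-MK1775+NLG919, are those of high mitochondrial share. With that share as covariate none of the 47 was called and the median was 0.04, and median-of-ratios and quantile scaling left 3 called each, with medians of 0.26 and 0.34.

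Change with Lipo-MK1775 went with transcript length. Across the 47 genes Pearson r between log2 change and log2 length was -0.35, and across all 12820 genes it was -0.52; these are correlations across genes, which are not independent replicates. Genes under 2000 bases had a median of -0.79 for 15 replication genes and -0.36 for 4238 genes. From 2000 to under 3000 bases the medians were -1.06 for 17 and -0.75 for 2748, and from 3000 bases -1.15 for 15 and -1.03 for 5834. The replication genes were lower than all genes in each class, with the smallest gap among the longest transcripts. The relation to length was not particular to Lipo-MK1775. Across the 47 genes r was -0.33 with Free-MK1775, -0.26 with Free-MK1775+NLG919 and -0.31 with Lipo-MK1775+NLG. Across all genes it was -0.20, -0.45 and -0.18 in that order.

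**Figure D4:**
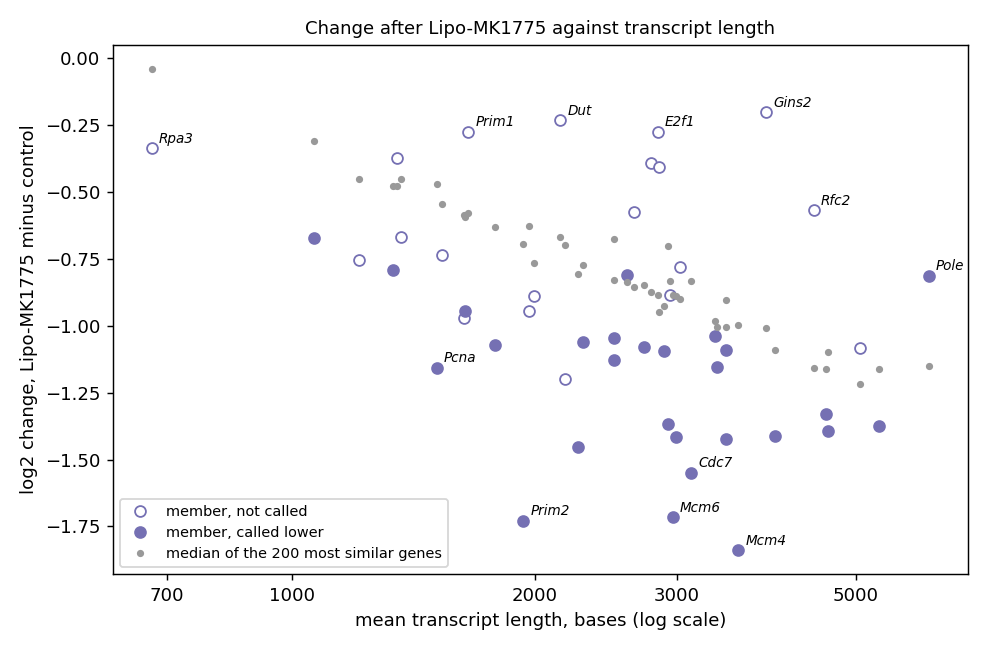
Log2 change with Lipo-MK1775 (vertical axis) against mean transcript length in bases (horizontal, log scale) for 47 replication genes, filled where called lower, with the median of the 200 genes nearest in level and length in grey. Mcm4, Mcm6, Prim2 and Cdc7 lie farthest below the grey points, and Gins2, E2f1, Rfc2 and Dut lie above them.

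Of 50 other replication genes that are no members, 29 were called lower with Lipo-MK1775 and none higher, where 47.7% of all genes were called lower. Their median was -0.90 beside -0.78 for all genes, and relative to the genes nearest in level and length it was -0.02, with 25 below and 25 above, against -0.22 for the 47. None was called in the other comparisons with the control. The lowest log2 changes there were the maintenance methyltransferase Dnmt1 at -1.94, the mismatch repair gene Msh6 at -1.83 and Topbp1, which activates the checkpoint kinase ATR, at -1.68. The ribonuclease subunit Rnaseh2c was 0.23 higher and not called. Of the 8 genes tied to WEE1 and S phase entry, 7 were called lower with Lipo-MK1775, again where 47.7% of all genes were. Wee1 itself, the target of MK1775, stood at 11.1 and 11.6 in the control, 7.85 and 11.4 with Free-MK1775, 6.20 and 3.14 with Free-MK1775+NLG919, 4.17 and 3.88 with Lipo-MK1775 and 8.90 and 6.91 with Lipo-MK1775+NLG, with a log2 change of -1.30 with Lipo-MK1775 (SE 0.31, adjusted p = 0.0126 by limma). Free-MK1775 replicate 2 overlapped the control, and the other treated libraries were lower. Chek1, the kinase that signals stalled forks, had log2 changes of -1.26 with Free-MK1775+NLG919, not called, and -1.23 with Lipo-MK1775.

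Markers of other cell types differed between libraries as well. The 4 tested endothelium markers were all called lower with Lipo-MK1775, where 47.7% of all genes were. The summed level of the 5 listed was 7.33 to 9.90 there against 29.6 to 39.4 in the control. The summed macrophage level was 926 to 1009 against 800.1 to 1088, with none of 7 called. Skin markers summed to 2.26 and 132 in the control libraries. Outside the libraries of high mitochondrial share, the 5 erythroid markers summed to 216 to 237 with Free-MK1775 against 47.4 to 69.9 in the control. None was called there, where 0.0078% of all genes were. The erythroid markers summed to 115 to 293 over both Free-MK1775+NLG919 libraries, of which replicate 2 is of high mitochondrial share. The 7 neutrophil markers summed to 594 to 776 with Lipo-MK1775+NLG against 320 to 453. Of the 6 tested, 4 were higher without overlap, against 22.6% of all genes, and none was called, where 0% of all genes were. The ribosomal RNA gene Rn18s stood at 3347 to 5798 in the 3 libraries of high mitochondrial share and at 531 to 1525 in the other 7. The part of cell make-up in the changes of the replication genes was not tested.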

How the data were processed

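RNA was taken with an RNeasy mini plus kit and libraries were made with a NEBNext Ultra kit, per the labels' protocols. Tools in the submitters' processing notes, without versions, are HISAT2, StringTie, Trim Galore and FastQC, and the build is GRCm39. The deposited values are FPKM per transcript, which the authors computed with mitochondrial transcripts inside the total; counts, true depth and strand setting were not used here, so overlapping and antisense genes cannot be told apart. Of 161762 transcripts, 21051 have no symbol; 14868 were added to the overlapping gene and 6183 left out.

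FPKM were summed per gene and rescaled to the non-mitochondrial total. Genes at 1 or more in at least 2 libraries were tested with limma 3.58.1 in R 4.3.3 on log2(value + 1), which understates changes of low genes, with a mean per group over all 10 libraries, a variance trend, and two-sided tests adjusted by Benjamini-Hochberg over all 12820 genes at 0.05. The procedure was tested on simulated data, with the same spread of a gene in every library and some genes shifted in a single group. Groups of unlike libraries and shifts over most genes, as in these data, were not simulated. Libraries were not paired by replicate number in the main fit (correlation of same-number deviations -0.33 to 0.10). Alternatives were scaling, pseudocount, filter, transcript summary, block, trend, weights, covariate and libraries left out; the fit without the libraries of mitochondrial share over 40% with median-of-ratios scaling was chosen after seeing the data. Members and lists were chosen with earlier results of these data known. All 47 members are named, 18 and those with the largest changes per comparison in full; others described at length were chosen after their values were seen.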

Additional observations from a re-analysis of the deposited data

Results flagged for a closer look

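The change made by NLG919 differed between the free and the Lipo form for 33 of the 47 replication genes by limma's test of the interaction, where 52.1% of all genes were called higher. Only 3 were called under median-of-ratios scaling and none with the mitochondrial share as covariate. All calls were lost without Free-MK1775 replicate 2, Lipo-MK1775 replicate 1 or Lipo-MK1775+NLG replicate 1. How many of all genes were called in these fits is not given here. The interaction was 2.61 log2 units for Mcm4, 2.58 for Mcm6 and 2.43 for Rrm2. Mitochondrial shares of 47.3% to 64.1% were in Free-MK1775+NLG919 replicate 2 and both Lipo-MK1775 libraries.

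Transcripts with no symbol and no overlapping gene, which enter no comparison, held 10.8% of the non-mitochondrial FPKM in Free-MK1775+NLG919 replicate 2, 13.8% in Lipo-MK1775 replicate 1 and 12.2% in Lipo-MK1775 replicate 2, above the 2.98% to 3.53% of the control libraries.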

How the results depend on the processing

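Each alternative changed a single choice, except that 1 changed both the libraries and the scaling, and unless a value shows it the cause of a difference was not tested. Counts are of the 47 replication genes called in either direction and medians are their log2 changes. For Lipo-MK1775 against the control, 47.7% of all genes were called lower in the main fit. This share was 9.81% with the highest transcript alone, 8.88% with median-of-ratios scaling and 9.24% with quantile scaling. It was 12.8% with no filter, 69.6% with array weights and 0% with the covariate. These 2 scalings each called 6 members lower, and 3 and 1 higher. Most other shares are not given. With the highest transcript alone, the number of members called was 6 for Lipo-MK1775 against the control, 1 for Lipo-MK1775 against Free-MK1775 and 1 for NLG919 with the Lipo form, 5 for the interaction, and the median was -0.12 for Free-MK1775 against the control, -0.0211 for Lipo-MK1775+NLG against the control, 1.00 for NLG919 with the Lipo form. With median-of-ratios scaling, the number of members called was 9 for Lipo-MK1775 against the control, 1 for Lipo-MK1775 against Free-MK1775 and 1 for NLG919 with the Lipo form, 3 for the interaction, and the median was -0.28 for Free-MK1775+NLG919 against the control, -0.15 for Lipo-MK1775 against the control, 0.00467 for Lipo-MK1775 against Free-MK1775, 0.12 for NLG919 with the Lipo form, 0.26 for the interaction. With quantile scaling, the number of members called was 1 for Free-MK1775+NLG919 against the control, 7 for Lipo-MK1775 against the control, 1 for Lipo-MK1775 against Free-MK1775, 0 for NLG919 with the Lipo form, 3 for the interaction, and the median was -0.23 for Lipo-MK1775 against the control, -0.0382 for Lipo-MK1775+NLG against the control, -0.0624 for Lipo-MK1775 against Free-MK1775, 0.0746 for NLG919 with the Lipo form, 0.34 for the interaction. Without the 3 libraries of high mitochondrial share and with median-of-ratios scaling, the median was -0.23 for Free-MK1775+NLG919 against the control, 0.14 for the 2 forms with NLG919, -0.11 for Free-MK1775+NLG919 against Free-MK1775. With FPKM as deposited, the number of members called was 41 for Lipo-MK1775 against Free-MK1775, 46 for NLG919 with the Lipo form, and the median was -1.37 for Lipo-MK1775 against the control, -0.0198 for Lipo-MK1775+NLG against the control, -1.25 for Lipo-MK1775 against Free-MK1775, 1.31 for NLG919 with the Lipo form, 1.95 for the interaction. With a pseudocount of 0.1, the median was -1.14 for Lipo-MK1775 against the control, 1.08 for NLG919 with the Lipo form. With no filter, the number of members called was 12 for Lipo-MK1775 against the control, 0 for Lipo-MK1775 against Free-MK1775, 0 for NLG919 with the Lipo form, 0 for the interaction. With transcripts that carry a symbol only, the number of members called was 3 for Lipo-MK1775 against Free-MK1775, 8 for NLG919 with the Lipo form, and the median was -0.95 for Lipo-MK1775 against the control, 0.99 for NLG919 with the Lipo form. With array weights, the number of members called was 42 for Lipo-MK1775 against the control, 41 for Lipo-MK1775 against Free-MK1775, 46 for NLG919 with the Lipo form. With the mitochondrial share as covariate, the number of members called was 0 for Lipo-MK1775 against the control, 0 for Lipo-MK1775 against Free-MK1775, 0 for NLG919 with the Lipo form, 0 for the interaction, and the median was 0.0733 for Lipo-MK1775 against the control, 0.21 for Lipo-MK1775 against Free-MK1775, -0.21 for NLG919 with the Lipo form, 0.0449 for the interaction. With only the groups compared, the number of members called was 34 for Lipo-MK1775 against Free-MK1775, 44 for NLG919 with the Lipo form. Leaving out each library in turn, the number of members called ran from 0 to 38 for Free-MK1775+NLG919 against the control, 0 to 40 for Lipo-MK1775 against the control, 0 to 43 for Lipo-MK1775 against Free-MK1775, 0 to 41 for the 2 forms with NLG919, 0 to 39 for Free-MK1775+NLG919 against Free-MK1775, 0 to 46 for NLG919 with the Lipo form, 0 to 44 for the interaction. The median ran from -0.29 to -0.10 for Free-MK1775 against the control, -1.38 to -0.36 for Free-MK1775+NLG919 against the control, -1.06 to -0.91 for Lipo-MK1775 against the control, -0.10 to -0.0278 for Lipo-MK1775+NLG against the control, -0.94 to -0.71 for Lipo-MK1775 against Free-MK1775, 0.24 to 1.23 for the 2 forms with NLG919, 1.02 to 2.03 for the interaction. With median-of-ratios scaling 18 of the 47, with the mitochondrial share as covariate 28 and with quantile scaling 17 were above 0 with Lipo-MK1775; named here are genes called in either fit. With median-of-ratios scaling, the log2 change turned positive for Cdt1 (0.111), Gins1 (0.192), Gins2 (0.621), Rfc3 (0.127), Dut (0.719), E2f1 (0.629), Donson (0.008), Pole4 (0.852). With the mitochondrial share as covariate, it turned positive for Cdt1 (0.277), Mcm2 (0.22), Mcm5 (0.575), Mcm6 (0.327), Dbf4 (0.186), Pcna (0.254), Rfc3 (0.014), Pold3 (0.0165), Fen1 (0.0733), Rpa2 (0.246), Uhrf1 (0.00874), Cdc25a (0.0724), Donson (0.0507), Hells (0.0166). With quantile scaling, it turned positive for Gins1 (0.203), Gins2 (0.664), Rfc3 (0.0257), Pole (0.00919), Donson (0.0597), Pole4 (0.696). With the replicate number as a block, the number of members called was 26 for Lipo-MK1775 against the control, of which 25 were among the 27, where 44.9% of all genes were called lower. It was 16 for Lipo-MK1775 against Free-MK1775, 21 for NLG919 with the Lipo form and 32 for the interaction. The sample titles do not say whether same-numbered libraries were paired. Without Free-MK1775+NLG919 replicate 2 the median for that group against Free-MK1775 moved from -0.63 to -0.16, within the SD of 0.52. Other medians of the 47 stayed within the SD of the libraries' medians, pooled over the groups compared, and other counts within 1.5 times. True depth is unknown, and the 3 libraries of high mitochondrial share were among the 4 shallowest by relative depth, which limits the precision of low genes there.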
